A study of Mus musculus with 12 samples.

Results

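Spheres grown from mouse embryonic fibroblasts transduced with Bmi1 were compared with mouse embryonic stem (ES) cells, to see which stem cell genes the spheres had at the level of ES cells and which they lacked. The comparison took 2 of the 12 arrays of the series, chosen by their titles, and covered all genes measured on them. Each RNA sample was hybridised once to a one-colour (Cy3) Agilent array. The ES sample came from 129/Ola mice and is labelled with blastocysts as its cell type. The sphere sample is labelled as neural stem cell-like cells transduced with Bmi1, of embryonic fibroblast origin, but its description field calls it an iPS sample; the former was used. The labels give no mouse strain for the fibroblasts, and no clone, passage or culture medium for either sample. The array of untreated mouse embryonic fibroblasts (MEF) and the 9 arrays of induced pluripotent stem (iPS) lines are given beside the results as context. All 9 lines carry Oct4 (Pou5f1): 2 were made with Bmi1 and Oct4, 1 with the hedgehog protein Shh and Oct4, 2 with oxysterol and Oct4 and 2 with purmorphamine and Oct4, all from embryonic fibroblasts. The remaining 2 came from fibroblasts of adult tail tips, with the same oxysterol and Oct4.

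Bmi1 is a subunit of Polycomb repressive complex 1, which places ubiquitin on histone H2A and keeps developmental genes silent. In neural stem cells it is known for sustaining self-renewal, in part by repressing the Cdkn2a locus, which encodes the cell cycle inhibitor Ink4a and the p53 activator Arf. ES cells rest on another network, built around the transcription factors Pou5f1, Sox2 and Nanog. Neural stem cells share some of its parts, Sox2 above all, and add factors and filament proteins of their own, such as Nes, Gfap and Sox9.

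Levels are log2 processed signals from which the log2 of the array's 75th percentile was subtracted, so that 0 is that percentile over the gene spots of each array. Differences are spheres minus ES on this scale. A gene was called higher on one array if it was well above background there and at least 2-fold above the other. Where it was not well above background on the lower array, here called dim, the difference has no exact size, and the fold is given as a lower bound. With 1 array on each side there was no replicate, no test and no error of a difference. The spread between sister iPS lines serves as a yardstick, and 4 groups held 2 lines. Between sister lines 31.7% to 41.7% of genes were at least 2-fold apart, against 53.8% between the spheres and ES. By the signals as read, the median absolute difference was 0.56 to 0.80 between sister lines and 1.11 between the spheres and ES, and the 95th percentiles were 3.28 to 3.79 and 5.32. A 2-fold difference of a single gene is therefore within the range seen between lines of 1 kind. A difference of at least 16-fold, or 4 log2 units, lies beyond the 95th percentile of every sister pair. That percentile is taken over all genes, and some genes spread more, such as Dcn with an SD of 5.77 between sister lines. Counts at 16-fold are given beside those at 2-fold. They take a gene that was dim on the lower array by its bound, so a gene dim in ES is counted only where its sphere level was at least 16-fold above the ES detection limit. Replicate spots within an array had a median SD of 0.11 on the spheres and 0.12 on ES. The 2 samples lay on different slides of 4 arrays, so slide and cell type cannot be told apart except through the iPS lines. The iPS lines on the ES slide were the Bmi1-Oct4 lines. Those on the sphere slide were a purmorphamine-Oct4 line and the tail-tip lines. Values given with slide as a term therefore also carry the difference between these kinds of line, and the 2 cannot be told apart. The sphere array had 80.0% of its spots well above background and the ES array 64.9%, the other arrays lying between 58.4% and 78.4%. The lowest signal that counted as well above background was -6.94 on the spheres and -5.37 in ES.

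Of 25199 genes measured in the series, 23065 were well above background on the spheres or in ES. Among these 6895 (29.9%) were higher in the spheres, 5514 (23.9%) were higher in ES, 9378 (40.7%) were less than 2-fold apart and above background on both, and 1278 (5.54%) were less than 2-fold apart and dim on 1 of the 2. Counts in the gene lists below are to be read against these shares. The median difference was 0.11. Of the genes higher in the spheres 3372 were dim in ES, and for 1581 of those the bound itself reached 2-fold. Of the genes higher in ES 945 were dim on the spheres, and all 945 bounds reached 2-fold. Among the 17470 genes above background on both arrays the split turned, with 3523 higher in the spheres and 4569 higher in ES. At 16-fold, measured or as a bound, 566 genes (2.45%) were higher in the spheres and 1012 (4.39%) higher in ES. By the signals as read these counts were 890 (3.86%) and 1294 (5.61%). Across genes, the Pearson correlation of the sphere levels was 0.81 with ES and 0.84 with MEF, a description over genes that share 1 array each.

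**Figure D1:**
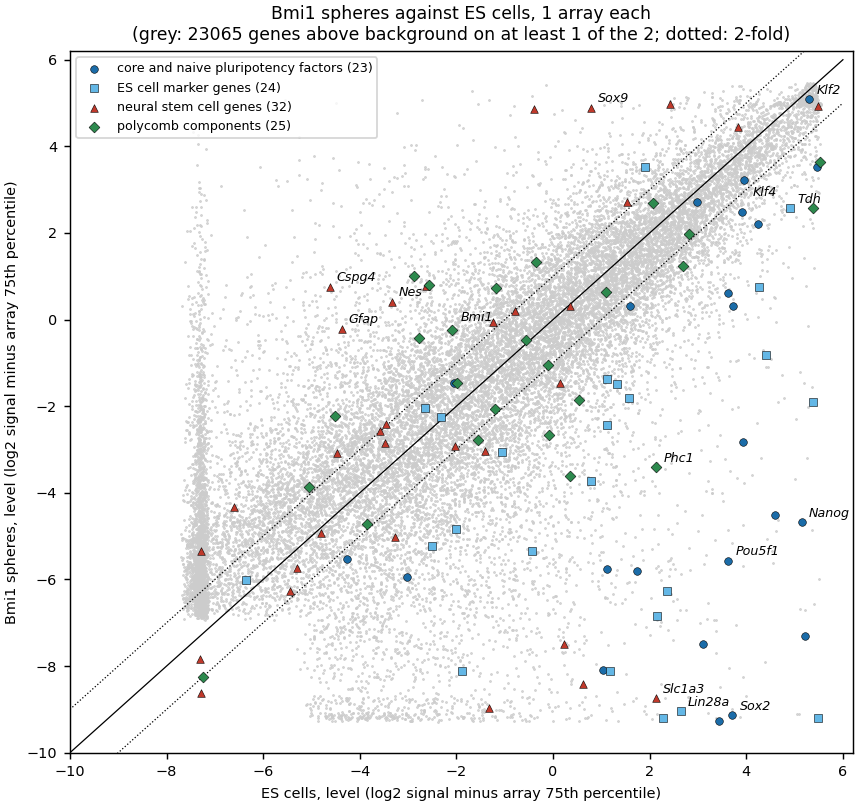
Level of each gene in ES (x axis) and on the Bmi1 spheres (y axis), both as log2 signal minus the array's 75th percentile, with 23065 genes in grey and 4 gene lists in colour. Most pluripotency and ES marker genes lie at the right and below the 2-fold line, with Klf4 and Klf2 near the diagonal, while Sox9, Nes, Gfap and Cspg4 lie above it. The vertical grey band at the left holds genes that were dim in ES.

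Bmi1 itself was higher in the spheres than in ES by both of its probes. The probe with the higher mean signal, at chr2:18751519-18751578 of mm7, the genome build of the array design, read -0.23 on the spheres, -2.10 in ES and 0.37 in MEF, and -3.19 to -1.64 over the 9 iPS lines. The difference from ES was 1.86, or 3.64-fold. By this probe the spheres stood above ES and every iPS line but below MEF. The other probe, at chr2:18748838-18748897, read -1.27 on the spheres, -5.10 in ES and -6.26 in MEF, and -6.46 to -3.54 over the iPS lines, a difference from ES of 3.82. By this one the spheres were above all 11 other arrays. Neither reading tells the transduced copy from the cell's own gene, since the files do not give the sequence of the transduced copy.

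The core and naive pluripotency factors were mostly lower than in ES, although 18 of the 23 measured were above background on the spheres. Of 23 measured members none was higher in the spheres, 19 were higher in ES, 11 of them by 16-fold or more, and 4 were less than 2-fold apart. Over all genes 23.9% were higher in ES and 4.39% by 16-fold. The median difference was -3.43, against 0.11 over all genes. Sox2, the high mobility group factor that ES and neural stem cells have in common, read 3.71 in ES, 3.32 to 4.36 over the iPS lines and -1.16 in MEF, and -9.14 on the spheres, where it was dim. ES was at least 1607-fold higher. Its SD between sister lines was 0.12. The spheres were thus below the fibroblasts for this gene, which has a single probe here. Pou5f1, the POU factor Oct4, read 3.62 in ES, -5.56 on the spheres and -6.66 in MEF, and was 582-fold higher in ES. Nanog, the homeodomain factor that stabilises the naive state, read 5.14, -4.68 and -3.96 in the same order and was at least 907-fold higher in ES, where its signal was saturated, which makes the fold a lower bound too. Both were above background on the spheres, at levels nearer to MEF than to ES or any iPS line. In RNA from whole cultures, fewer cells that express a gene and less RNA per cell cannot be told apart.

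Other members of the network were as far apart. Sall4, a zinc finger factor of pluripotent cells, was at least 4543-fold higher in ES. Another Sall4 probe differed by -1.91, so the direction is shared and the size is not. Zfp42, also known as Rex1, was dim on the spheres at -7.49, against 3.11 in ES, at least 1061-fold. Esrrb, an orphan nuclear receptor of the naive state, read 4.60 in ES, -4.50 on the spheres and -5.97 in MEF, 551-fold apart, and its other probe differed by -1.88 in the same direction. Tfcp2l1, a LIF-dependent naive factor, was 108-fold and Sox15 186-fold higher in ES. The nuclear receptors Nr0b1 and Nr5a2 were at least 251-fold and 118-fold higher. The gap was smaller for Mybl2 (10.8-fold), Klf5 (8.05-fold), Gbx2 (7.48-fold), Zfp281 (4.07-fold) and Tbx3 (at least 3.87-fold). Rif1, the corepressor Trim28 and Sall1 were 2.71-fold, 2.44-fold and 2.4-fold higher in ES, sizes that lie below the 95th percentile between sister lines.

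Among the 4 members within 2-fold were a pair of Kruppel-like factors. Klf4, a reprogramming factor in its own right, read 3.22 on the spheres, 3.94 in ES and 3.48 in MEF, a difference of -0.72. Klf2 read 5.08, 5.30 and 5.15, but was saturated on both of the compared arrays, so a difference there could go unseen. Foxd3, a forkhead factor, read 2.72, 2.98 and 3.29. Utf1, a chromatin factor of ES cells, read -1.46 on the spheres and -2.06 in ES, a difference of 0.60. The first 3 were within 2-fold of the spheres in MEF too.

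**Figure D2:**
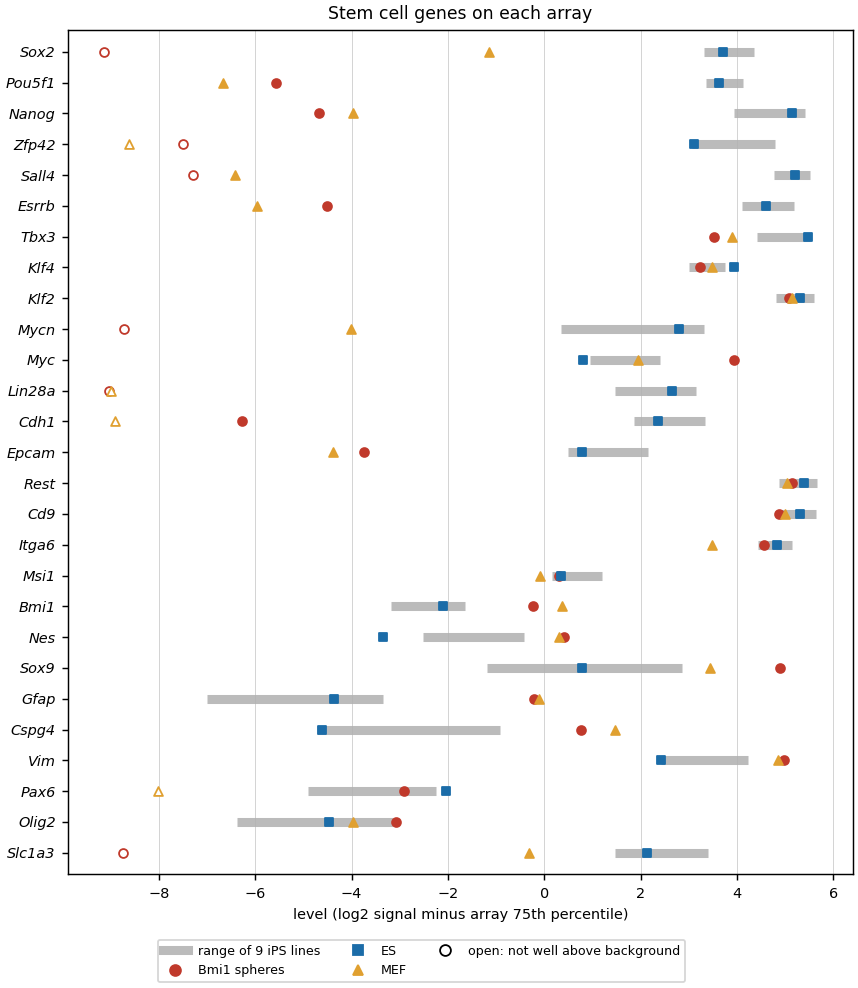
Level (log2 signal minus the array's 75th percentile, x axis) of 27 stem cell genes on the spheres, in ES and in MEF, with the range of the 9 iPS lines as a bar and open symbols for signals not well above background. Sox2, Pou5f1, Nanog, Zfp42, Sall4 and Esrrb are high in ES and in every iPS line and far lower on the spheres, while for Nes, Gfap, Vim and Cspg4 the spheres lie near MEF and above ES.

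Marker genes of ES cells outside the core network showed the same split. Above background were 18 of the 24 measured on the spheres and 23 in ES. Of 24 measured, 20 were higher in ES, 11 of them by 16-fold or more, 1 was higher in the spheres, 2 were less than 2-fold apart on both and 1 was within 2-fold but dim in ES, with a median of -3.53. Lin28a, which blocks maturation of let-7 miRNAs, read 2.64 in ES and -9.04 on the spheres, at least 766-fold lower there. Dppa4, a developmental pluripotency gene, was at least 590.1-fold and Fbxo15, an F-box protein used as a reporter locus in reprogramming, at least 279-fold lower. The glucose transporter Slc2a3 read 5.47 in ES, saturated, and -9.19 on the spheres, at least 5452-fold apart. Its second probe on chromosome 6 differed by -10.47, while a probe assigned to the same gene but placed on chromosome 17 differed by 0.55.

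Surface proteins of ES cells followed. Cdh1, the epithelial cadherin, read 2.36 in ES and -6.27 on the spheres, 396-fold apart, and was dim in MEF at -8.91. Epcam read 0.79 and -3.74, 23.05-fold apart, and Jam2, a junction molecule, was dim on the spheres and at least 515-fold higher in ES. Dppa5a, Dppa3, Ooep and Dppa2, genes of the early embryo, were at least 155-fold, at least 33.1-fold, 30.1-fold and 7.02-fold higher in ES. Gdf3 and Nodal, ligands of the TGF-beta family, were 11.6-fold and 10.4-fold higher. Above background on both arrays and higher in ES were also Mkrn1 (11.4-fold), Lin28b (7.14-fold), Pecam1 (6.59-fold), Tcl1 (5.57-fold) and Tdh (5.08-fold), the threonine dehydrogenase on which mouse ES cells depend. Lefty1 (0.06) and Eras (0.62) were within 2-fold, as was Lefty2 (0.35), dim in ES. Spp1, a secreted phosphoprotein also made by fibroblasts and bone cells, was the only member higher in the spheres, at 3.52 against 1.91 in ES and 3.75 in MEF, and the difference went to -0.074 with slide as a term.

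A list of 28 genes that both neural stem and ES cells are known to use was examined in the same way. Of these 6 were higher in the spheres, 12 were higher in ES, 6 of them by 16-fold or more, and 10 were within 2-fold and above background on both, with a median of -0.45. Over all genes these shares were 29.9%, 23.9%, 4.39% by 16-fold toward ES, and 40.7%. A like level was thus no more frequent in this list than over all genes. The genes at a like level were Klf4, already described, and 9 others. They were the Polycomb methyltransferase Ezh2 (0.63 on the spheres and 1.10 in ES), the tetraspanin Cd9 (4.87 and 5.30, saturated in ES), the laminin receptor subunit Itga6 (4.56 and 4.84), and the repressor of neuronal genes Rest (5.15 and 5.39, saturated on both). The LIF co-receptor Il6st (-0.20 and 0.03), the RNA-binding protein Msi1 (0.31 and 0.35), the telomerase subunit Tert (-3.70 and -4.16), the maintenance DNA methyltransferase Dnmt1 (0.03 and -0.82) and the integrin chain Itgb1 (2.68 and 1.68) completed them. In MEF Ezh2, Itga6, Tert and Dnmt1 read -1.28, 3.48, -4.81 and -1.44, each below both the spheres and ES, and Cd9, Rest and Msi1 read 4.999, 5.04 and -0.09. Il6st and Itgb1 read 1.60 and 4.13 in MEF, above both the spheres and ES. A further probe of Cd9 differed by -2.67, and further probes of Rest by -1.94 and 0.07, so for Cd9 a like level holds for the brighter, saturated probe only.

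Of the genes shared by both stem cell types, Sox2 was not alone in being dim on the spheres. Cd24a, a surface glycoprotein, read 3.71 in ES, 4.37 in MEF and -8.995 on the spheres, at least 1601-fold below ES. The drug efflux pump Abcg2, a marker of side population stem cells, read 2.32, 2.81 and -8.73 in that order, and its other probe differed by -3.14. Prom1, the CD133 antigen used to sort neural stem cells, read -1.32, -0.27 and -8.97, at least 49.2-fold below ES. All 3 were above background in MEF. Alpl, the tissue-nonspecific alkaline phosphatase used to stain ES colonies, was 34.1-fold higher in ES, and dim in MEF at -8.83. Id1 and Id2, inhibitors of basic helix-loop-helix factors, were 5.82-fold and 6.68-fold higher in ES, Notch1 3.34-fold, Msi2 3.09-fold and the LIF effector Stat3 2.07-fold, which went to -0.72 with slide as a term. Fgfr1 differed by -2.91 on the probe used, but its 4 probes split evenly, with 2 higher in ES and 2 higher in the spheres.

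Myc and Mycn differed in opposite directions. Myc read 3.93 on the spheres, 0.81 in ES and 1.93 in MEF, and 0.95 to 2.40 over the iPS lines, 8.73-fold higher in the spheres than in ES. Its other probes differed by 3.39 and 3.34. Mycn, the neural and ES family member and a hedgehog target, read 2.79 in ES, -4.01 in MEF and -8.72 on the spheres, where it was dim, at least 849.5-fold below ES, and its other probe differed by -6.63. The spheres were above all other arrays for Myc and below all others for Mycn.

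Other shared genes stood higher in the spheres. Nes, the intermediate filament nestin of neural progenitors, read 0.41 on the spheres, -3.34 in ES, 0.30 in MEF and -2.51 to -0.41 over the iPS lines, 13.5-fold above ES and at the MEF level. Id3 was 6.21-fold higher in the spheres, at 0.90 against 2.26 in MEF. Lifr, the LIF receptor, was dim in ES at -5.28 and at least 4.69-fold higher in the spheres. Of its 5 probes 3 were higher in the spheres, 1 was higher in ES and 1 was dim on both. Fut4, the enzyme that makes the SSEA-1 antigen, read -6.09 on the spheres and was dim in ES, where the lowest detectable signal was above that value, so no fold can be given.

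Neural stem cell genes were measured for 32 members, of which 30 were above background on at least 1 of the 2 arrays. Of these 14 were higher in the spheres, 7 were higher in ES, 7 were within 2-fold and above background on both and 2 within 2-fold and dim on 1. The first 2 shares were 46.7% and 23.3%, against 29.9% and 23.9% over all genes. At 16-fold the list was even, with 4 higher in the spheres and 4 in ES. The median was 0.81, or 0.63 with dim members at their bounds, and its sign turned with the mean of probes. Among those higher in the spheres were transcription factors of neural progenitors. Sox9, needed for gliogenesis and also a cartilage factor, read 4.89, 0.78 and 3.44 on spheres, ES and MEF, 17.3-fold above ES, and -1.19 to 2.86 over the iPS lines. Its other probes differed by 0.55 and 5.97. Emx2, a homeodomain factor of the cortex and the urogenital tract, read 0.77, -2.63 and -1.70, 10.5-fold above ES. Both were higher in the spheres than in MEF as well as ES.

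Vim, Gfap and Cspg4 were higher on the spheres than in ES, at levels near those of MEF. Vim, vimentin, read 4.97 on the spheres, saturated, 2.43 in ES and 4.84 in MEF, at least 5.84-fold above ES. Gfap, the filament protein of astrocytes and adult neural stem cells, read -0.21, -4.37 and -0.11, 17.9-fold above ES. Another Gfap probe went the other way, with -9.20 and dim on the spheres and -4.39 in ES, so its direction depends on the probe. Cspg4, the NG2 proteoglycan of oligodendrocyte progenitors and pericytes, read 0.76, -4.62 and 1.46, 41.7-fold above ES, and both other probes were also higher in the spheres. For each of these the spheres and MEF were within 2-fold of each other.

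Transcription factors that mark the neural plate and its derivatives differed less. Sox1, of the neural plate, read -4.32 on the spheres and was dim in ES, at least 2.06-fold lower there, a direction that turned (-2.23) with slide as a term. Sox3 and Olig2, of neural and oligodendrocyte progenitors, read -2.41 and -3.08 on the spheres and were 2.07-fold and 2.63-fold above ES, and the other Olig2 probe differed by -0.32. Hes5, a Notch target, and Six3 were 2.26-fold and 2.03-fold higher in the spheres, and the matrix proteoglycan Bcan 2.26-fold. With slide as a term the Sox3 difference went to 0.28. After normexp background correction, Sox1, Sox3, Olig2, Hes5 and Six3 were all under 2-fold apart. Pax6, of radial glia, read -2.92 on the spheres, -2.03 in ES and was dim in MEF at -8.02. Rax (0.98), Ptprz1 (-0.54, saturated on both), Tnc (-0.12) and Sox21 (0.64) were within 2-fold, but a second Sox21 probe was dim on the spheres and differed by -10.30. Fabp7, of radial glia, was dim in ES with a sphere signal near the ES detection limit (bound 1.02-fold). Of the 2 arrays, Nkx2-2 and Hes1 were above background on the spheres only, at -6.27 and -5.72, where the detection limit was lower (-6.94, against -5.37 in ES). Hes1 read -5.30 in ES, slightly above the sphere signal, and -6.92 to -3.01 over the iPS lines. Olig1 and Nr2e1 were dim on both.

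Some genes by which neural stem cells are recognised were low on the spheres. Slc1a3, the glial glutamate transporter GLAST, read 2.12 in ES, -0.31 in MEF and -8.74 on the spheres, at least 534-fold below ES, and both other probes were lower on the spheres too (-6.27 and -2.53). Zic1, of the dorsal neural tube, was at least 144-fold lower than ES and read 1.90 in MEF. Egfr read 0.62 in ES, 4.40 in MEF and -8.42 on the spheres by the probe used. Another Egfr probe was higher in the spheres by 1.94, and the remaining 3 differed by 0.92, -0.35 and -1.28, the first and last of these dim on at least 1 array. Lhx2 (3.35-fold), Gpm6a (3.08-fold) and Ncan (3.05-fold) were above background on both and higher in ES. Sox2, Slc1a3, Prom1 and Zic1 were all dim on the spheres and above background in MEF.

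Genes of differentiated neurons and glia were split, with 8 of 24 higher in the spheres (29.9% of all genes), 12 higher in ES (23.9%) and 4 within 2-fold (40.7%). For 3 of those higher in the spheres ES was dim and the bound stayed under 2-fold. Neurog2, a proneural factor, was at least 12.5-fold higher in the spheres, and S100b, a calcium-binding protein of glia and other cells, 3.66-fold. Aldh1l1, of astrocytes, was 3.02-fold and the neuronal tubulin Tubb3 2.7-fold higher, the latter going to 0.20 with slide as a term. The neurofilament Nefl, Gad1, which makes GABA, and Map2 were 64.8-fold, 19.2-fold and 6.1-fold higher in ES. Of the neural crest genes, 8 of 14 were higher in the spheres, 2 were higher in ES, and the median was 1.73. Pax3, a crest and muscle progenitor factor, read 0.34 on the spheres and was dim in ES and in MEF (-7.29 and -8.80), at least 52.03-fold above ES. A second Pax3 probe differed by 1.12. Foxc1, Foxc2 and Ets1 were at least 18.4-fold, 32.1-fold and 16.8-fold higher in the spheres and were also above background in MEF, while the neurotrophin receptor Ngfr read -5.78 on the spheres against 2.24 in ES.

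Of 24 Polycomb genes 8 were higher in the spheres, 8 higher in ES and 8 within 2-fold, near the shares of all genes (29.9%, 23.9% and 40.7%), and the median was -0.66. Within Polycomb complex 1 the 2 cell types had different subunits at the higher level. The chromodomain protein Cbx8 read -0.42 on the spheres, -2.78 in ES and -0.13 in MEF, 5.12-fold above ES. Cbx7, the chromodomain protein that predominates in ES cells, read -3.61 and 0.34, 15.5-fold higher in ES, and Cbx2 was 2.34-fold higher in ES. Of the polyhomeotic subunits Phc1 was 46.5-fold higher in ES, by 3 of 3 probes, and Phc2 3.75-fold higher in the spheres, by both of its probes. Bmi1 and its paralogue Pcgf2 were higher in the spheres (3.64-fold and 2.29-fold, Pcgf2 turning to -1.51 with slide as a term), and the paralogues Pcgf1 and Pcgf6 were higher in ES (5.93-fold and 5.26-fold). Pcgf5 differed by -1.44, with a second probe at 3.62, and Pcgf3 by 0.52. The catalytic subunits Ring1 (0.08) and Rnf2 (-0.94) were within 2-fold. Yaf2 was 10.3-fold higher in the spheres and its paralogue Rybp within 2-fold at -0.86.

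Of Polycomb complex 2, which methylates histone H3, the core subunits Ezh2, Ezh1 and Suz12 were within 2-fold and Eed was not. Ezh2 differed by -0.47, Ezh1 by -0.85 and Suz12 by -0.85, while Eed was 3.24-fold higher in the spheres. Among the accessory subunits Jarid2 and Mtf2 were at least 3.69-fold and at least 6.99-fold higher in ES, where both were saturated, and Phf19 was 4.88-fold higher in the spheres. For Cbx8, Phc1, Phc2 and Yaf2 the sphere level was within 2-fold of that in MEF, while Cbx7 read -5.44 in MEF.

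The genes of the Cdkn2 locus, which Bmi1 is known to repress, were lower on the spheres than in ES and MEF. Cdkn2a read -9.09 on the spheres, dim, -3.12 in ES and 0.33 in MEF, and ES was at least 14.1-fold above the spheres. The single probe cannot tell the Ink4a from the Arf transcript. Cdkn2b, the neighbouring Ink4b gene, read -4.99, -3.30 and 2.83, 3.22-fold lower on the spheres than in ES. Cdkn2c and Cdkn2d, at other loci, were within 2-fold (-0.50 and 0.59), as was Trp53 (-0.98). Of the 20 genes of this list 4 were higher in the spheres and 4 in ES, against 29.9% and 23.9% of all genes. The p53 targets Mdm2 and Cdkn1a were 5.3-fold and 2.3-fold higher in the spheres (Cdkn1a at 0.88 with slide as a term) and the death receptor Fas at least 18.4-fold. The p53 targets Pmaip1 and Perp were at least 1698-fold and 164-fold lower, although they read 4.74 and 5.25 in MEF.

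Of 30 mitosis and replication genes 20 were within 2-fold, 10 were higher in ES and none was higher in the spheres, against 23.9% and 29.9% of all genes. The median was -0.64, the largest difference was that of Gins2 (-2.02), and Mki67 differed by -0.44, Pcna by -0.20 and Top2a by -0.55. Of 17 G1 regulators 5 were higher in the spheres and 5 in ES, near the shares of all genes. The kinase Cdk6 and its cyclin Ccnd2 were 20.7-fold and 7.46-fold higher in the spheres, the pocket protein Rbl2 8.36-fold and the phosphatase Cdc25a 2.54-fold. Ccne1, Ccnd3, Cdk2 and the inhibitor Cdkn1c were higher in ES by 2.19, 2.79, 4.53 and 9.67-fold, and Ccnd3 went to -0.94 with slide as a term. Ccnd1, a cyclin of fibroblasts, was saturated on both.

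Signalling pathways that maintain stem cells were compared next. Notch pathway genes were mostly higher in ES, 11 of 19 against 2 in the spheres, with a median of -1.42. The ligands Jag2 and Dll1 were 40.6-fold and 5.41-fold higher in ES, the receptors Notch3 and Notch4 7.63-fold and 12.6-fold, and the targets Hey2 and Hey1 at least 27.7-fold and 8.92-fold. The target Hes5 and the ligand Dll4 were higher in the spheres (2.26-fold and 2.35-fold). Wnt pathway genes were higher in ES in 13 of 23 cases and in the spheres in 5, with a median of -1.98. The receptor Fzd10 was at least 1277-fold lower on the spheres, the secreted inhibitors Sfrp1 and Dkk1 were 715-fold and at least 33.6-fold lower, and Tcf7l1 and the feedback target Axin2 8.64-fold and 8.27-fold. The effector Lef1 and the ligands Wnt5b and Wnt4 were 6.2-fold, 3.26-fold and 2.62-fold higher in the spheres, and Ctnnb1, beta-catenin, differed by 0.37.

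Hedgehog pathway genes numbered 16 above background, 3 higher in the spheres and 6 in ES (18.8% and 37.5%, against 29.9% and 23.9% of all genes). Smo, the signal transducer, and the effectors Gli1 and Gli2 were within 2-fold (0.13, 0.53 and 0.08). Gas1 and Boc, co-receptors, and Gli3 were 41.1-fold, 2.38-fold and 4.36-fold higher in the spheres, but the other Boc probe differed by -3.53. The ligand Dhh was 16.5-fold lower. Ptch1, receptor and target of the pathway, was 2.2-fold lower by one probe and higher by the other, which differed by 4.06. Of 20 FGF pathway genes 20% were higher in the spheres and 40% in ES, against 29.9% and 23.9% of all genes. The 4 higher in the spheres included Fgf7 (at least 42.9-fold), Fgf10 (4.57-fold) and the ERK phosphatase Dusp4 (19.2-fold). In ES 8 were higher, among them Fgf15 (at least 28.4-fold), the ERK-induced factors Etv5 (5.31-fold) and Etv4 (2.29-fold, -0.89 on the log2 scale with slide as a term) and Spry4 (2.86-fold). Fgf8 and Fgfr4 were saturated on both arrays.

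In the LIF and STAT3 pathway, by which mouse ES cells are maintained, 5 of 12 genes were higher in the spheres and 3 in ES. These shares were 41.7% and 25%, against 29.9% and 23.9% of all genes. The feedback inhibitor Socs3 was 7.01-fold higher in ES, and Osmr 2.5-fold, while the other Osmr probe differed by 5.65 and the first went to -0.37 with slide as a term. The cytokine Il11 read 3.09 on the spheres, -3.09 in ES and 5.15 in MEF, 72.5-fold above ES. Of 26 genes of the BMP and TGF-beta family 8 were higher in the spheres and 8 in ES, near the shares of all genes. The ligand Bmp4 was 49.3-fold higher in ES, the BMP targets Id4 and Smad7 at least 165-fold and 17.1-fold, and the activin chain Inhbb 463-fold, with a second Inhbb probe at 1.25. The receptor Tgfbr2 was 8.9-fold and Acvr2b 4.26-fold higher in the spheres. Growth factor receptors and ligands had 9 of 19 higher in the spheres and 5 in ES (47.4% and 26.3%, against 29.9% and 23.9% of all genes). The EGF family ligands Areg and Ereg were at least 26.1-fold and 24.6-fold higher in the spheres, the receptor Met 16.9-fold and Igf1 11.2-fold. Erbb2 was 32.2-fold higher in the spheres by one probe and differed by -1.08 by the other. Kit, the receptor of germ and ES cells, was 5.11-fold higher in ES and its ligand Kitl 9.73-fold higher in the spheres.

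DNA methylation genes differed in their de novo arm. Dnmt3l, Dnmt3a and Dnmt3b were 37.4, 7.04 and 4.001-fold higher in ES, and the methylcytosine dioxygenase Tet1 54.3-fold. Its paralogue Tet3 was 4.54-fold higher in the spheres, Tet2 differed by -0.70, and the maintenance genes Dnmt1 and Uhrf1 by 0.86 and -0.05, the latter saturated on both.

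**Figure D3:**
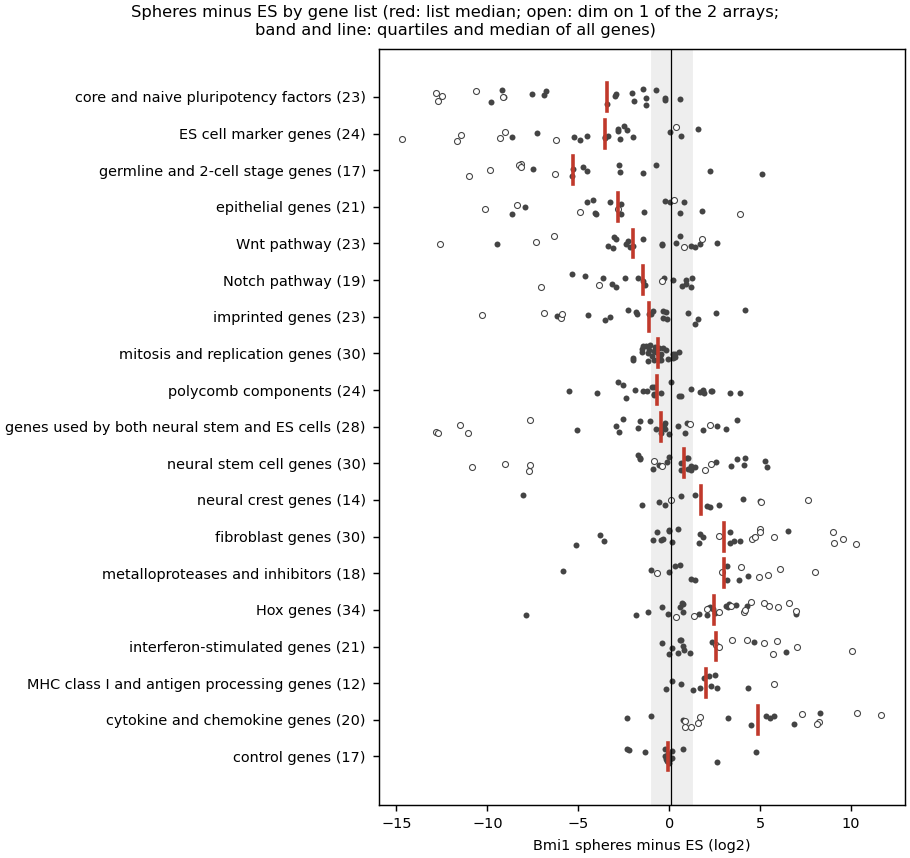
Difference of each member (spheres minus ES, log2, x axis) for 19 gene lists, with the list median in red, members dim on 1 of the 2 arrays as open circles, and the quartiles and median of all genes as a band and a line. Pluripotency, ES marker, germline and epithelial lists lie to the left, fibroblast, metalloprotease, Hox, interferon and cytokine lists to the right, and control genes close to 0.

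Genes of fibroblasts, the cells from which the spheres were made, were mostly above ES. Of 30 fibroblast genes 19 were higher in the spheres, 6 of them by 16-fold or more, 3 were higher in ES and 8 within 2-fold, with a median of 3.03, or 2.28 with dim members at their bounds. All 19 that were higher were above background in MEF too, as were 77.5% of all 6895 genes higher in the spheres. The collagen-binding proteoglycan Dcn read 2.94 on the spheres, 4.59 in MEF and was dim in ES, at least 315-fold lower there. Over the iPS lines it ran from -9.09 to 1.97. Thbs2, the collagen crosslinking enzyme Lox and the secreted serpin Serpinf1 were at least 188, 159 and 144-fold higher. Thy1, a fibroblast surface antigen, Ccn2, a growth factor of connective tissue, and Fstl1 were 14.1-fold, 34.7-fold and 11.9-fold lower on the spheres than in ES, although they read 4.77, 5.17 and 5.12 in MEF. Postn and Fap were dim on both, and Col1a1, Sparc and Tagln were within 2-fold.

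Regulators of the mesenchymal state were higher in the spheres in 9 of 15 cases, with 2 higher in ES. Twist2 was at least 628-fold, Prrx1 254-fold, Zeb2 48.98-fold and the cadherin Cdh2 9.36-fold higher. Tgfb2 was at least 44.3-fold lower, and Zeb1 was 2.27-fold lower. Epithelial genes went the other way, 14 of 21 higher in ES and 2 in the spheres, with a median of -2.82. The claudins Cldn7, Cldn6 and Cldn4 were at least 1109-fold, 16.6-fold and 9.68-fold higher in ES, the polarity protein Crb3 at least 91.3-fold and the protease St14 248-fold. The keratin Krt8 and the GTPase Rab25 were 3.45-fold and at least 3.98-fold higher in the spheres.

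Hox genes, whose pattern records the body position a cell came from, were higher in the spheres in 24 of 34 cases, 6 of them by 16-fold or more, and higher in ES in 3, with a median of 2.46. All 24 that were higher were above background in MEF, against 77.5% of all genes higher in the spheres. Hoxd9 read 4.03 on the spheres, -2.94 in ES and 2.73 in MEF, 125-fold above ES, and Hoxb7, Hoxb2 and Hoxc12 were at least 33.6, 26.4 and 15.4-fold higher. Hoxc13, at -5.73 on the spheres against 2.13 in ES and 2.56 in MEF, was 233-fold lower. Metalloproteases and their inhibitors were higher in 12 of 18 cases. Mmp10 and Mmp3 were at least 76.03-fold and 17.9-fold higher, Plat 19.8-fold and Mmp14 14.4-fold, while the inhibitor Timp3 was 58.3-fold lower.

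Genes of the germ line and of the cleavage-stage embryo, part of which ES cells are known to transcribe, were nearly all lower on the spheres. Of 17 measured 14 were higher in ES, 11 of them by 16-fold or more, and 2 in the spheres, with a median of -5.30. The RNA helicase Ddx4 was at least 463-fold, Stra8 at least 194-fold, Stk31 at least 68.7-fold and Dazl at least 179-fold higher in ES. Nanos3 and the X-linked homeobox gene Rhox5 were 34.4-fold and 4.77-fold higher in the spheres.

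Lists of other embryonic lineages gave no single direction. Of 19 primitive endoderm genes 3 were higher in the spheres and 8 in ES. Lama1 was at least 858-fold and Sox17 at least 44.04-fold higher in ES, while the other Sox17 probes differed by 0.51 and 1.88, and Gata4 differed by 0.98. Gata6 differed by -0.01 but was saturated on the spheres, so a difference there could go unseen. Afp, the fetal serum protein, read 1.29 on the spheres and was dim in ES and MEF, at least 101-fold above ES. Of 13 trophectoderm genes 7 were higher in ES, led by Tfap2c (720.0-fold) and Cdx2 (at least 53.1-fold). The 2 higher in the spheres were dim in ES with bounds under 2-fold. Among 10 mesoderm and epiblast genes Otx2 was at least 36.9-fold higher in ES and Mesp1 at least 36.4-fold higher in the spheres, and 5 further genes of the list were dim on both.

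Of 17 adipocyte, cartilage and bone genes 11 were higher in the spheres and 3 in ES. The osteoblast factor Runx2 read 3.51 on the spheres, -3.50 in ES and 2.56 in MEF, 129-fold above ES by the probe used and in the same direction by its other 3 probes. The bone matrix gene Ibsp and the adipocyte factor Pparg were at least 4.83-fold and 2.96-fold higher. Of 11 muscle genes 4 were higher in the spheres and 4 in ES (36.4% each). Of 11 endothelial genes 1 was higher in the spheres and 5 in ES (9.09% and 45.5%). Of 7 keratinocyte genes the counts were 1 and 2 (14.3% and 28.6%). Over all genes the shares were 29.9% and 23.9%. The endothelial receptors Tek and Flt1 were at least 23.7-fold and 115-fold lower on the spheres, and the other 3 Flt1 probes differed by 0.92, 3.33 and 1.12. Of 23 imprinted genes 13 were higher in ES, among them Peg10 (at least 1262-fold), Igf2 (at least 50.5-fold), Mest (71.2-fold) and Mirg (at least 13.4-fold), and 5 in the spheres, led by Plagl1 (18.1-fold) and Gnas (5.94-fold). The Plagl1 difference went to 0.15 with slide as a term, below the 2-fold threshold. Of 23 integrins and laminins 8 were higher in the spheres, led by Itga2 (at least 8.3-fold), and 6 in ES. These shares (34.8% and 26.1%) were near those of all genes (29.9% and 23.9%).

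Genes of inflammation and innate immunity were mostly higher in the spheres. Toward the spheres, cytokines had the largest median of the lists used, also with dim members at their bounds. Of 20 cytokines, chemokines and their receptors 15 were higher in the spheres, 11 of them by 16-fold or more, and 1 in ES, with a median of 4.91. For 3 of the 15 higher in the spheres, ES was dim and the bound under 2-fold. The chemokine Ccl9 read 4.27 on the spheres, 2.98 in MEF and was dim in ES, at least 795-fold lower. It ran from -6.25 to 2.40 over the iPS lines. Il1rl1, the receptor of the alarmin Il33, read 3.03 and 5.11 on spheres and MEF and was at least 337-fold above ES. Il33 itself read 3.73 on the spheres, -4.55 in ES and -2.01 in MEF, 309-fold above ES. The neutrophil chemokines Cxcl2 and Cxcl5 were at least 80.5-fold and 71.98-fold higher, and Cxcl12, which retains stem cells in the marrow, was 4.98-fold lower. Of the 15 higher genes 14 were above background in MEF, against 77.5% of all genes higher in the spheres.

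Interferon-stimulated genes were higher in the spheres in 13 of 21 cases and in ES in none, with 8 within 2-fold and a median of 2.55. Ifit1, an antiviral RNA-binding protein, read 2.73 on the spheres, 3.28 in MEF and was dim in ES at -7.31, at least 273-fold lower. Over the iPS lines it ran from -7.84 to 2.90, the highest of them above the spheres. Oasl2 was at least 61.1-fold and Rsad2 84.8-fold higher. Isg15, a ubiquitin-like protein, read 1.79 on the spheres and 1.80 in ES, and the transducers Stat2 and Irf9 differed by 0.13 and 0.74. All 21 genes were above background on the spheres and in MEF. Class I antigen presentation followed, 9 of 12 higher in the spheres and none in ES, among them the proteasome subunit Psmb8 (20.1-fold), the light chain B2m (at least 6.15-fold, saturated on the spheres) and H2-K1 (5.69-fold). Leukocytes also express these genes. Of 19 macrophage and leukocyte genes measured 18 were above background on either array. Of these 18, 11 (61.1%, against 29.9% of all genes) were higher in the spheres, 3 of them with a bound under 2-fold. The median difference was 1.05, or 0.84 with dim members at their bounds. The summed linear signal of the 19 genes, relative to the 75th percentile, was 13.5 on the spheres, 16.3 in ES and 13.5 in MEF. A few bright members, such as Cd68 on the spheres and Laptm5 in ES, make up much of these sums. The sums therefore do not measure leukocyte content. The pan-leukocyte antigen Ptprc read -4.96 on the spheres and was dim in ES and MEF, Csf1r read -4.12 on the spheres and -4.95 in MEF, Adgre1 -4.18 and 0.59, and the myeloid factor Spi1 was dim on the spheres at -8.28. Other members stood higher on the spheres than in ES and MEF, such as Cd53 (-2.18, against -7.23 in ES and -3.83 in MEF) and Cd68 (2.81, 1.73 and 0.08). The 3 members higher in ES included Laptm5 (2.57 in ES and -6.45 on the spheres). The part of leukocytes in the immune gene differences was not tested. Of 11 complement genes 4 were higher in the spheres (36.4%), led by C1s1 (6.41-fold), and 1 in ES (9.09%). Over all genes these shares were 29.9% and 23.9%. For 1 of the 4 ES was dim and the bound under 2-fold.

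Because interferon and cytokine genes differed together, the letters before their starts were examined, in RefSeq windows of 250 bases before to 50 after each start in GRCm38.p6, read on both strands. The interferon response element was searched as GAAA, any 2 letters and GAAA in a row, and it stood in 9 of the 15 interferon-stimulated genes that had a window, 7 of them among the 10 higher in the spheres, and in 943 of all 27025 windows (3.49%). The kappaB element, searched as GGG, any 2 letters and TTTCC, stood in 6 of 16 cytokine and chemokine genes, 4 of them among the 10 higher in the spheres, and in 438 of all windows (1.62%). The octamer bound by POU factors, ATGCAAAT, stood in 1 of 18 pluripotency factor windows, that of Zfp42, and in none of 11 ES marker windows, against 474 of all (1.75%). The windows of Ifit1 and Isg15 are shown because they carry the same element while the first gene was at least 273-fold higher in the spheres and the second was level. Those of Cxcl2 and Ccl9 are shown as the chemokines with the element among the largest differences, and that of Zfp42 as the single octamer match. Each is the 250 bases before the start, 5′ to 3′ on the gene's strand, with the matched letters, on either strand, in capitals.
Ifit1, chr19:34640639-34640888, plus strand: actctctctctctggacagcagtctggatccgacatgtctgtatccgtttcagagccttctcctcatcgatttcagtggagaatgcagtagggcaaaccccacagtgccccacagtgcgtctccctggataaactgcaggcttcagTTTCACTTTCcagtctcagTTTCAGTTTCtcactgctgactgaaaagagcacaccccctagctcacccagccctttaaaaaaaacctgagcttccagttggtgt
Isg15, chr4:156200819-156201068, minus strand: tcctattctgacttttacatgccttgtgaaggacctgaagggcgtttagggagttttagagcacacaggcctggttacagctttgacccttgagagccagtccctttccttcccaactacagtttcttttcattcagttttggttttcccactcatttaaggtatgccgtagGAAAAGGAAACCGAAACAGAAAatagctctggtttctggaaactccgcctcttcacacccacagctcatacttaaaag
Cxcl2, chr5:90903649-90903898, plus strand: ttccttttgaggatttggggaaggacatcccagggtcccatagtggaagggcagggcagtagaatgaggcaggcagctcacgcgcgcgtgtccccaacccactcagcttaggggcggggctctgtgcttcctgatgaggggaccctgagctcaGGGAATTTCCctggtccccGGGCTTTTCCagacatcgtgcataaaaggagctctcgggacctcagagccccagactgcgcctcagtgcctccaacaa
Ccl9, chr11:83578637-83578886, minus strand: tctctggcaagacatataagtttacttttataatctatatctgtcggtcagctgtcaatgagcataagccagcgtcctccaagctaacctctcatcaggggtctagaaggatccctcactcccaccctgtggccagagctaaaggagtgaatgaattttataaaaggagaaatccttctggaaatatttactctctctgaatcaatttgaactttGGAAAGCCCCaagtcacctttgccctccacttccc
Zfp42, chr8:43307010-43307259, minus strand: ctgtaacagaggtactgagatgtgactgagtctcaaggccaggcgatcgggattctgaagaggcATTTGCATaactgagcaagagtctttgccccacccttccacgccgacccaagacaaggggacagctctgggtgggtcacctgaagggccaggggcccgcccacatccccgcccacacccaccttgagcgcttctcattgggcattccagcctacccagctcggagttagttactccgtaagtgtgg
The first Ifit1 match begins 104 bases before the start and the second 85 bases before it, the 3 overlapping Isg15 matches begin 78 to 66 bases before it, and the Cxcl2 matches 97 and 78 bases before it. A match is a description of letters and says nothing of binding in these cells.

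Promoter composition differed between the classes. Of 13767 genes with a window, the median window held 17 CpG dinucleotides in 300 bases, and 58.0% had an observed over expected CpG ratio of 0.6 or more. Genes within 2-fold had a median of 20 and a share of 70.5% (5963 genes), those higher in ES 18 and 60.7% (3327 genes), and those higher in the spheres 10 and 41.7% (3835 genes). At 16-fold, measured or as a bound, the values were 16 and 51.9% for the 638 genes higher in ES and 7 and 32.7% for the 346 higher in the spheres. CpG-poor promoters were thus most frequent among the genes that were furthest above ES, of which many were dim in ES. Of all genes higher in the spheres 3372 of 6895 were dim in ES, and of those higher in ES 945 of 5514 were dim on the spheres. Genes within 2-fold here were above background on both. Class and detection are therefore mixed in this comparison, and it was not repeated on genes above background on both arrays.

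Of 19 glycolysis genes 13 were within 2-fold. Among those, Slc2a1, Aldoa, Pgk1 and Pgam1 were saturated on both arrays and Ldha on the spheres, so a difference could go unseen. Besides Slc2a3 the lactate dehydrogenase Ldhb (11.6-fold) and hexokinase Hk2 (3.66-fold) were higher in ES and the enolases Eno3 (4.9-fold) and Eno2 (3.84-fold) in the spheres. Cholesterol genes were higher in the spheres in 11 of 26 cases and in ES in 3. These shares were 42.3% and 11.5%, against 29.9% and 23.9% of all genes. Fdps and Cyp51, enzymes of the pathway, were 12.1-fold and 10.3-fold higher and the carrier Apoe 18.7-fold, while the efflux pump Abcg1 was 12.7-fold lower. Glutathione and detoxification genes were higher in the spheres in 11 of 21 cases (52.4%) and in ES in 2 (9.52%). The cystine transporter Slc7a11 read 2.99 on the spheres, -4.79 in ES and -5.04 in MEF, 220.4-fold above ES, and Gsta2 was at least 58.5-fold higher. Of the immediate early genes Jun and Fosl1 were 72.3-fold and 69.5-fold higher in the spheres, Fos and Fosb were higher in ES by 3.91 and 4.9-fold, and Egr1 differed by 0.00. Of 17 control genes 12 were within 2-fold, including Ppia (-0.24), Rplp0 (-0.09), Tubb5 (-0.06) and Tbp (0.14). Hprt read 4.01 on the spheres, -0.73 in ES and 5.11 in MEF, 26.8-fold lower in ES.

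The 12 largest differences each way were taken by the signals as read, so their order among dim genes is not known. Toward the spheres they were those of Slpi, Prkg2, Ccl9, Twist2, Trim30a, Cav1, Ddr2, Ifi203, Il1rl1, Dcn, Cst6 and Dnm3os, all dim in ES. Their bounds ran from 250.2-fold for Dnm3os, a noncoding RNA host of miRNAs, to 1388-fold for Cav1, the caveolae protein, which was saturated on the spheres, and Slpi, a protease inhibitor, was at least 1301-fold higher. By the bounds Ly6c1 (at least 712-fold), Tm4sf1 (at least 493-fold) and Samd4 (at least 471-fold) would rank above some of them. All 12 were above background in MEF, and a second Prkg2 probe was dim on both arrays. Between sister iPS lines the SD of the 12 ran from 1.89 for Ddr2 to 5.77 for Dcn. These genes thus also varied widely between lines of 1 kind. Slpi read 4.98 on the spheres and 0.34 in MEF, Ddr2, a collagen receptor, 3.18 and 2.22, and the interferon-inducible Trim30a and Ifi203 3.57 and 3.04 on the spheres and 1.63 and 2.06 in MEF. Among the 12 largest toward ES were those of Slc2a3, Platr10, Cobl, Adam23, Sox2, Cd24a, Pcsk6, Fzd10, Sall4, Meioc and Fhl1, all dim on the spheres, with bounds from 1140-fold for Meioc to 5452-fold for Slc2a3. Their SDs between sister lines ran from 0.12 for Sox2 to 0.93 for Fzd10. By the bounds Nup210, a nuclear pore protein, at least 3503-fold higher in ES, would rank among them. So would Fam81a, Smtnl2 and Marcks, given below, by folds from signals above background on both arrays. Platr10, a noncoding RNA named for its link to pluripotency, read 5.10 in ES, 4.95 to 5.58 over the iPS lines and was dim on the spheres and in MEF. Among genes above background on both arrays, chosen after their values were seen, the widest gaps toward the spheres were those of Il33, Prrx1 and the dipeptidase Dpep1 (246-fold), and toward ES those of Fam81a (3975-fold), Smtnl2 (at least 3879-fold) and Marcks (at least 2921-fold), both saturated in ES.

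Part of what was lower than in ES was lower than on every array of the series. A gene set was taken after seeing the data: genes above background on the other 11 arrays and at least 16-fold below the lowest of them on the spheres. By the signals as read it held 256 genes, 162 of them dim on the spheres, and the gap of 203 reached 16-fold with dim signals at their bounds. The same counts were 116 and 60 for MEF, 21 and 7 for the first oxysterol-Oct4 line, and 0 to 3 and 0 for each of the other 9 arrays. Every ES or iPS array had other pluripotent cells among the 11 it was set against. MEF and the spheres were each the only array of their kind, so these counts are not on an equal footing. Sox2, Cd24a, Abcg2, Slc1a3, Slc2a3 and Pmaip1 were in it. So were Prom1, Zic1, Egfr, Mycn, Jam2, Fzd10, Sfrp1, Id4, Inhbb, Flt1, Ddx4, Peg10 and Igf2, each by the probe used. Also named above and in it were Hoxc13, Timp3, Ccn2, Perp, Tgfb2, Cobl, Pcsk6, Meioc, Fam81a and Smtnl2. For all of these the gap from ES is also a gap from the fibroblasts. Adam23, a surface protein of the disintegrin family, read -9.18 on the spheres, 3.87 in ES, 3.41 in MEF and 3.52 to 5.02 over the iPS lines. Fhl1, a LIM protein of muscle and fibroblasts, read -7.90, 4.39, 5.20 and 3.71 to 5.30 in the same order. Marcks, a substrate of protein kinase C, read 5.51 in ES and 5.22 in MEF, and the lowest other array lay 10.95 above the spheres. Of 118 other probes of these genes that were above background in ES, 88 were at least 2-fold lower on the spheres, 8 at least 2-fold higher and 22 neither. Probes entered this tally only through ES, and counted as higher only if also above background on the spheres. That filter favours lower readings on the spheres, so the tally is no support for the set. In 97 of the 256 genes MEF was above ES. For neither count was a share over all probes or genes taken. The cause was not tested for any gene of the set, and a single hybridisation of the spheres cannot tell the cells from the array.

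**Figure D4:**
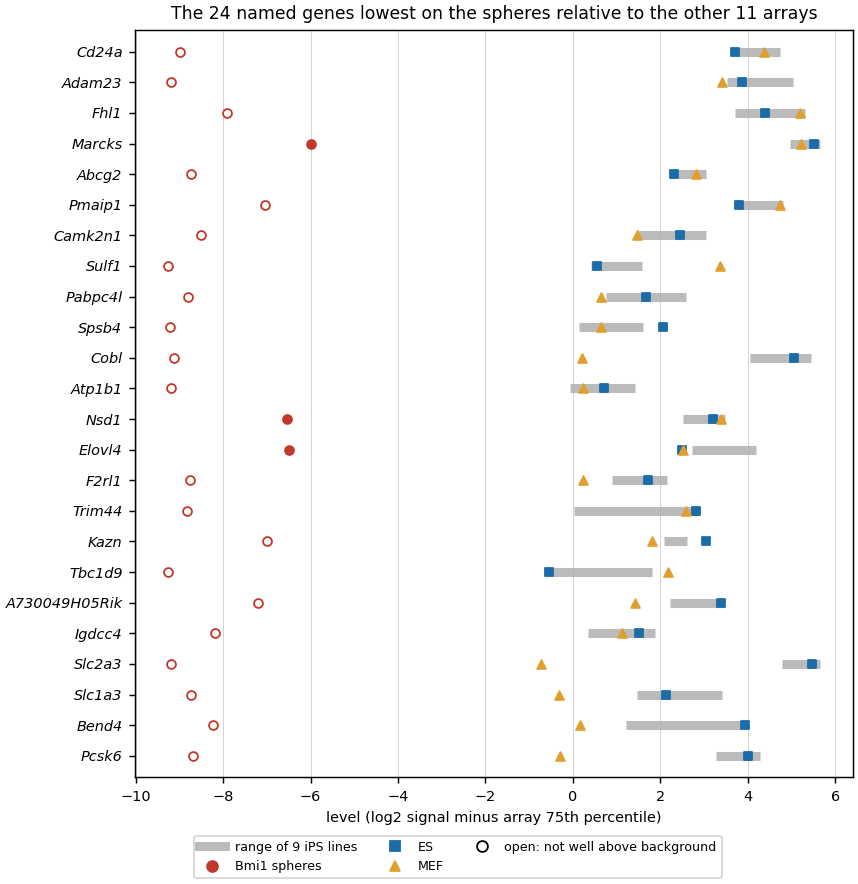
Level (log2 signal minus the array's 75th percentile, x axis) of the 24 genes with a RefSeq symbol that lay furthest on the spheres below the lowest of the other 11 arrays by the signals as read, with most sphere values not well above background. The lowest sphere value is -9.26, that of Sulf1, the spheres were above background for Marcks, Nsd1 and Elovl4 only, and the lowest value on any other array is -0.73, that of Slc2a3 in MEF.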

How the data were processed

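Expression was measured on 12 one-colour Agilent arrays, 1 per RNA sample. The deposited files hold spot intensities as made by Agilent Feature Extraction 9.5.3.1 (protocol GE1-v5_95_Feb07), per the file headers, and the processed intensity used here is already corrected for background there. What was done to grow the cells is known from the labels only, and nothing in the labels says that samples come from separate cultures.

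Control spots and outlier spots were left out. The log2 of the deposited intensity, minus the log2 of the array's 75th percentile over 43379 gene spots, was averaged over the spots of each of 41174 probes. A probe was well above background where at least 50% of its spots carried that call in the file. Probes were named through the RefSeq accession (22944), a symbol or synonym (9772) or the deposited name (8458). Of 8209 genes with several probes the one with the highest mean over the 12 arrays was used. Probe positions are those of the file (mm7). A signal not well above background was bounded by the higher of its own value and the array's lowest signal well above background.

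With 1 array on each side, sizes are given and no test was run. The rule that assigns the classes was checked on simulated data with known differences and noise well below the spread between sister lines. That check does not bear on how much of the reported counts such spread could account for. The members and the 43 gene lists were chosen with earlier results of these data known. Named genes are Bmi1, the reprogramming factors, the members of 5 stem cell and Polycomb lists, the 12 largest differences each way, and up to 4 members each way of every other list, with examples within 2-fold. A few further list members and the genes singled out for extreme values were named after their values were seen. Alternatives were normexp background correction (limma 3.58.1 in R 4.3.3), quantile normalization, another scaling percentile, other filters, probes and thresholds, and slide as a term in a linear model over the 12 arrays. That model held all iPS lines as 1 class, so its slide term also carries differences between kinds of iPS line. Other steps used Python 3.11.15, numpy 2.4.6 and pandas 2.3.3. Promoter sequences are from RefSeq (GRCm38.p6). Some genes that the naming rule takes are not reported here.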

Additional observations from a re-analysis of the deposited data

How the results depend on the processing

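No paired analysis was possible because each side is 1 array, and for the same reason no array could be left out. Of 326 genes named that were above background on either array, 275 were at least 2-fold apart, and 32 of them changed class under at least 1 alternative of scaling, background, probe choice, slide or floor. With the mean of all probes the direction turned for Boc (-1.14), Fgfr1 (0.66), Gfap (-0.32), Osmr (2.16), Pcgf5 (1.09) and Ptch1 (1.46), whose probes disagree. With slide as a term it turned for Pcgf2 (-1.51), Sox1 (-2.23) and Spp1 (-0.074), and with dim signals raised to the higher floor Fut4 went to 0.00. The count of genes higher in the spheres was 4237 after normexp background correction, 3523 among genes above background on both arrays, 4409 at 3-fold and 890 at 16-fold by the signals as read, a threshold added after seeing the data, and the count higher in ES was 1294 at 16-fold. The share of calls that were higher in the spheres was 55.6%, and 45.7% after normexp, 43.5% among genes above background on both arrays and 50.5% with no filter. The percentile over probes detected on all arrays moved the median of all genes from 0.11 to 0.22.

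The median of the core pluripotency list was -2.47 among genes above background on both arrays and -4.72 with the mean of probes, and that of the ES markers -2.84 and -3.85. The median of genes used by both stem cell types was -0.51 after normexp, -0.32 after quantile normalization, -0.33 with the other percentile, -0.28 above background on both, -0.59 with the mean of probes, -0.60 without saturated genes and -0.21 with slide as a term. The neural stem median was 0.35 after normexp, 0.63 with no filter, 1.04 above background on both, -0.18 with the mean of probes, 0.42 with slide as a term and 0.63 with raised floors. It had the opposite sign with the mean of probes. The Polycomb median was -0.008 with the mean of probes, -0.20 without saturated genes and -0.97 with slide as a term. The causes were not tested. Genes dim in ES have bounds only, since fewer spots were above background there than on the spheres.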

Other observations

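Genes that were highest on the spheres, chosen after their values were seen, were fewer than those that were lowest. By the signals as read 50 genes were at least 16-fold above the highest of the other 11 arrays, and 32 were so with dim signals at their bounds. Of these 32 genes 12 were above background in ES. Phex, an endopeptidase of bone cells, read 2.79 on the spheres and at most -3.36 on any other array, and the mast cell tryptase Tpsab1 read 1.32 against at most -4.86. Afp, Slc7a11, the milk protein Csn3 (1.49), the urea transporter Slc14a1 (1.69), the oxygen-binding globin Cygb (2.85) and the neutrophil protein S100a8 (1.22) were also in this set.

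Genes of the sex chromosomes were also examined after seeing the data. Xist, the noncoding RNA of X inactivation, read -3.55 on the spheres, 2.82 in ES, -0.10 in MEF and 1.71 to 3.77 over the iPS lines. The Y-linked genes Kdm5d, Ddx3y, Eif2s3y and Uty were dim on the spheres, at -8.96, -9.21, -8.74 and -7.21. In ES Ddx3y and Eif2s3y were above background at -3.64 and -4.39, and Kdm5d and Uty were dim at -7.26 and -5.05. They read 1.37, 2.36, 0.84 and 0.09 in MEF. The labels give no sex for any sample.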
